A study of Mus musculus with 12 samples.

Results

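The stress vs. Ctrl comparison took 6 of the 12 libraries of the series, 3 stress libraries and 3 Ctrl libraries, chosen by their treatment label. RNA came from intestinal stem cells (ISCs) that were sorted after dissociation of small intestinal crypts. The mice were *Lgr5-EGFP-IRES-CreERT2*, with green fluorescent protein and an inducible Cre recombinase made from the *Lgr5* locus, and the gate kept EpCAM+, CD24- cells with bright EGFP. Both groups carried this allele, and the methods describe mice of 8 to 10 weeks and of both sexes, with no sex given per library. The question was what restraint does to the expression profile of these cells on the day of the exposure. The stress libraries carry a label that elsewhere in the study stands for chronic restraint, but the sequenced mice were exposed for 1 day. The study's protocol for chronic restraint has sessions of 3 h in a tube, before or after noon with no fixed hour, and takes food and water away from the controls meanwhile. Whether the mice exposed for 1 day and their controls were handled in this way is not given separately. The collection time of each library is not given in the sources used here. The stress libraries are labelled 1+2, 3 and 4+5+6 and were read as pools of 2, 1 and 3 mice, whereas the Ctrl libraries 1, 2 and 3 carry single numbers, and no label says that the latter came from separate animals, so the p-values measure the spread between these libraries, which may be technical. Of 47729 genes in the count table, 13722 had enough counts in the 6 libraries to be tested.

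Restraint activates the hypothalamic-pituitary-adrenal axis, and in mice the adrenal cortex then releases corticosterone. This steroid enters cells and binds the glucocorticoid receptor, encoded by *Nr3c1*, which leaves a chaperone complex, moves to the nucleus and regulates genes through DNA elements made of paired half-sites. Its targets are known for lowering inflammation, for sparing glucose by turning cells toward fat, and for resetting cellular clocks. Lgr5+ cells at the crypt base divide to renew the epithelium and give rise to absorptive enterocytes and to secretory Paneth, goblet, enteroendocrine and tuft cells.

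Total counts ranged from 15934907 to 17135770 per library, and the share of the mitochondrial genome from 1.91% to 3.62%. Levels are given in CPM, counts scaled to the total of each library with TMM factors, in the order Ctrl 1, 2 and 3 and then stress 1+2, 3 and 4+5+6. Differences between groups are log2 fold changes of stress minus Ctrl with their standard error (SE, n = 3 libraries per group), and adjusted p-values are those of edgeR's quasi-likelihood test over all 13722 genes with Benjamini-Hochberg adjustment. With an adjusted p under 0.05 and a change of more than 2-fold, 84 genes were higher in stress (0.612% of those tested) and 19 were lower (0.138%). At an adjusted p under 0.05 with any fold change, 179 genes were higher (1.3%) and 81 were lower (0.59%), and in the text below a gene rose or fell where it passed this second limit. The 3 stress libraries all lay above the 3 Ctrl libraries in 1403 genes (10.2%) and all below them in 1396 genes (10.2%), and each of the 260 genes past the test was among these. The median log2 fold change of all genes tested was -0.003.

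The labelled cell type was checked against its markers. The summed level of 8 stem cell markers was 11040 to 12510 CPM in Ctrl and 11630 to 14300 CPM in stress, and that of 10 immune markers was at most 7.45 CPM. Most of the stem cell sum was *Olfm4*, and the median level of the 8 markers was 398 to 458 CPM in Ctrl and 378 to 402 CPM in stress, with 6 of the 8 negative in log2 fold change (median -0.12). The summed level of 12 enterocyte markers was 776, 788 and 745 CPM in the Ctrl libraries and 1926, 1044 and 3436 CPM in stress 1+2, 3 and 4+5+6. Every stress library thus stood above every Ctrl library for these markers, with stress 3 nearest to Ctrl and stress 4+5+6 highest. In bulk RNA, a change in the number of cells of a type and a change in RNA per cell cannot be told apart. The order stress 3, then 1+2, then 4+5+6 was found in 2784 of the 13722 genes (20.3%), and in 53 of the 84 genes higher in stress (63.1%). This is also the order of the number of mice per library as read from the labels. The enterocyte gradient and the size of the pool thus cannot be told apart. Calls were therefore repeated with each library left out. Of the 84 higher genes, 20 kept both the adjusted p and the 2-fold limit in all 6 of these fits, and of the 19 lower genes 6 did.

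Canonical glucocorticoid receptor targets held many of the calls. Members of this list and of those below were chosen with earlier results of these data known, so their shares are not independent evidence. Of 35 targets listed, 33 were tested, 16 rose (48.5%, against 1.3% of all genes) and 0 fell (2 at an unadjusted p under 0.05 in edgeR, 0 in DESeq2), with a list median of 0.98. *Zbtb16*, *Pdk4*, *Angptl4* and *Sgk1* changed most among the 16, and 13 or more of the list rose in each fit that left out a library (14, 14, 14, 13, 19 and 14 members without Ctrl 1, 2 and 3 and stress 1+2, 3 and 4+5+6). The receptor gene *Nr3c1* itself stood at 179, 169 and 159 CPM in Ctrl and 169, 149 and 172 CPM in stress, and the groups overlapped (log2 fold change -0.05 ± 0.09, adjusted p = 0.865). None of 20 genes for the receptors, steroid-activating enzymes and chaperones passed the test in edgeR or DESeq2, with unadjusted p under 0.05 in 1 that was higher and 2 that were lower, but 4 of the 20 fell in edgeR without stress 3.

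Of the 7 kinase and signalling targets, 4 rose. *Sgk1*, a kinase that stimulates sodium transport and phosphorylates FoxO factors, had 14.6, 21.5 and 13.9 CPM in Ctrl and 247, 153 and 208 CPM in stress. The lowest stress library was thus several times above the highest Ctrl library, and the log2 fold change was 3.60 ± 0.21 (12.2-fold, adjusted p = 6.65e-05). *Ddit4*, which restrains the growth kinase mTORC1, had 173, 168 and 127 CPM against 608, 611 and 505 CPM (3.68-fold, 1.88 ± 0.13 on the log2 scale, adjusted p = 0.000117). *Irs2*, the adaptor that carries insulin signals from the receptor, had 19, 20.9 and 17.4 CPM against 55.7, 47.2 and 48.6 CPM (2.64-fold, 1.40 ± 0.13 on the log2 scale, adjusted p = 0.00057). The stress libraries lay close together for both genes. *Errfi1*, an inhibitor of the EGF receptor, rose 2.23-fold (adjusted p = 0.0115), a call lost without Ctrl 2 or without stress 1+2, with adjusted p up to 0.0624. *Dusp1*, a MAP kinase phosphatase, stood at 6.88, 6.97 and 19.1 CPM and 21.8, 16.8 and 10.1 CPM, with Ctrl 3 inside the range of stress, and did not pass (adjusted p = 0.586).

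**Figure D1:**
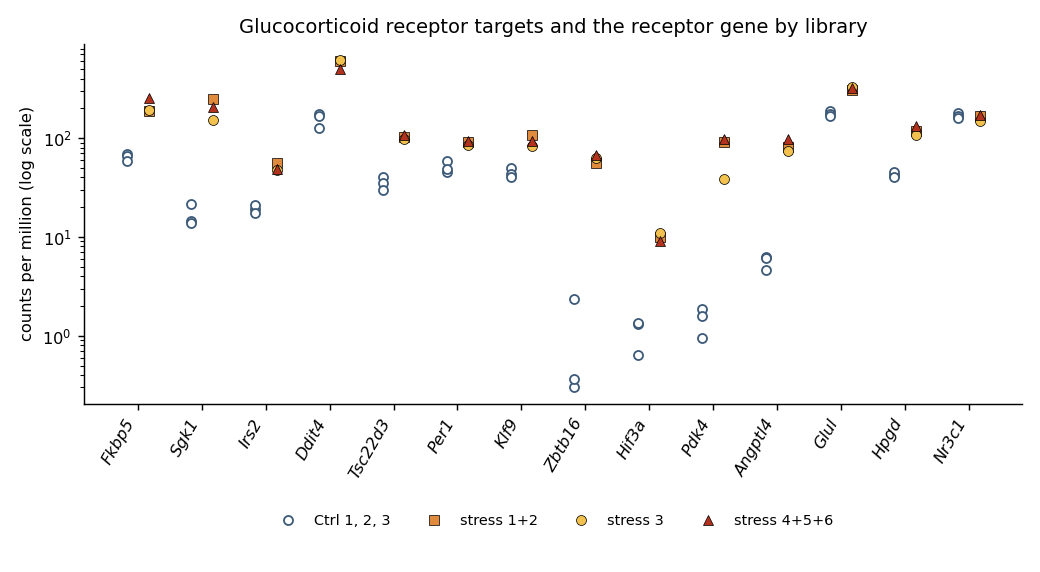
Level of 13 glucocorticoid receptor targets past the test and of the receptor gene *Nr3c1* in each library, in CPM on a log axis, with open circles for Ctrl 1, 2 and 3 and filled symbols for the stress libraries. The stress libraries lie above the Ctrl libraries for each of the 13 targets and overlap with them for *Nr3c1*, and stress 3 stands apart from the other stress libraries for *Pdk4*.

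*Fkbp5*, a co-chaperone that lowers the receptor's affinity for its hormone, had 68.5, 65.8 and 58.6 CPM in Ctrl and 188, 193 and 254 CPM in stress (3.29-fold, 1.72 ± 0.13 on the log2 scale, adjusted p = 0.000148). Among transcription regulators, *Zbtb16*, a zinc finger repressor, was nearly silent in Ctrl at 2.35, 0.301 and 0.368 CPM and reached 55.6, 62.5 and 66.8 CPM in stress. Its log2 fold change was 5.91 ± 0.47 (adjusted p = 0.000228). In Ctrl 2 and 3 it lay under the floor of 12 counts, or 3 read pairs of up to 4 counts each (0.724 CPM on average over the Ctrl libraries), so the size of this change is less certain than its direction. *Tsc22d3*, whose product GILZ mediates anti-inflammatory effects of glucocorticoids, had 40.1, 35.1 and 29.9 CPM and 101, 97.4 and 107 CPM (2.91-fold, 1.54 ± 0.12 on the log2 scale, adjusted p = 0.000148), while the other 3 tested genes of the Tsc22d family did not pass. *Hif3a*, a relative of the hypoxia-inducible factors, rose from 0.646, 1.32 and 1.35 CPM to 10.02, 10.97 and 9.18 CPM (9.05-fold, 3.18 ± 0.34 on the log2 scale, adjusted p = 0.00198), and as its level in Ctrl 1 lay under the floor of that library (0.708 CPM), the size of its change is uncertain too (1.08 with log2(FPKM + 1)). For these regulators the stress libraries lay close together and above all Ctrl libraries. *Klf9*, a Krüppel-like repressor, rose 2.1-fold (adjusted p = 0.00248), and of the 13 tested members of its family *Klf6* and *Klf11* rose too, 1.58-fold and 1.79-fold, calls that held without stress 3 and were lost in the other 5 fits (adjusted p up to 0.153 and 0.147). In this family 23.1% rose, against 1.3% of all genes. *Tfcp2l1*, a factor of epithelial ducts, stood at 4.58, 11.5 and 3.99 CPM against 23.9, 21.9 and 27.5 CPM (3.65-fold, 1.87 ± 0.35 on the log2 scale, adjusted p = 0.0277), and lost its call without Ctrl 1, Ctrl 3, stress 1+2 or stress 4+5+6 (adjusted p up to 0.146).

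*Hpgd*, which inactivates prostaglandins, had 42.6, 45.5 and 40.4 CPM in Ctrl and 119, 107 and 132 CPM in stress (2.78-fold, 1.48 ± 0.10 on the log2 scale, adjusted p = 0.000117), and was the 1 member of 11 prostaglandin genes to pass. *Glul*, glutamine synthetase, had 188, 177 and 168 CPM and 305, 326 and 317 CPM (1.78-fold, 0.83 ± 0.08 on the log2 scale, adjusted p = 0.000906). For both enzymes the groups were well apart and the stress libraries lay close together. *Pck1*, which starts gluconeogenesis, behaved otherwise, with 1.7, 1.98 and 2.02 CPM in Ctrl and 24.6, 2.74 and 37.6 CPM in stress. Stress 3 was near Ctrl for *Pck1* and the other stress libraries far above it, and the call (adjusted p = 0.044) was lost in each fit that left out a library other than stress 3 (adjusted p up to 0.204).

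The promoters of *Sgk1* and *Txnip* are printed because they were the 2 promoters among those of the 84 higher genes that held letters of a glucocorticoid response element. RefSeq windows of 300 bases (250 before and 50 after the annotated start, GRCm38.p6) existed for 9737 of the genes tested, for 67 of the 84 higher genes and for 13 of the 19 lower genes. The palindrome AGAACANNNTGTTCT was found in 3 of 32851 windows (0.00913%) and in 1 gene tested, *Sgk1*, in 1 of its 6 windows. The relaxed form GNACANNNTGTNC, which includes the palindrome, was found in 156 windows (0.475%) and in 32 of the 9737 genes (0.329%), of which 2 were among the higher genes and 0 among the lower. Both forms read the same on either strand. *Angptl4* and *Zbtb16* had no window. Capitals mark the palindrome, which starts 189 bases before the annotated start, in the *Sgk1* window at chr10:21993640-21993939 on the + strand, and the relaxed form, 172 bases before the start, in the *Txnip* window at chr3:96557707-96558006 on the + strand.
Sgk1: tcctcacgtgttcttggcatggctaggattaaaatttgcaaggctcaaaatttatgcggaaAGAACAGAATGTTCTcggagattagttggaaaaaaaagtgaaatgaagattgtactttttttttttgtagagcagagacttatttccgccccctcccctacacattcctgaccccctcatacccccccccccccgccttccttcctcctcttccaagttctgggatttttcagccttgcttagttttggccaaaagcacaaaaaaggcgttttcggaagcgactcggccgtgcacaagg
Txnip: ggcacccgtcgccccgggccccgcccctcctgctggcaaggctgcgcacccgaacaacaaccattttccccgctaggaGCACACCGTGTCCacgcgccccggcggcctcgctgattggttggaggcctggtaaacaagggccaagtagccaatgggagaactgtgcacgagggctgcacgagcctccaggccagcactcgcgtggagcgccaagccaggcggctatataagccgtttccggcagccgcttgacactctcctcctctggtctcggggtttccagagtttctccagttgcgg

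Single genes of the fasting response rose along with these targets. Of 60 tested genes for fatty acid use, 7 rose (11.7%, against 1.3% of all genes) and 0 fell (2 at an unadjusted p under 0.05 in edgeR, 0 in DESeq2), with 48 of 60 positive and a median of 0.27. Without stress 4+5+6, the library with the highest enterocyte marker sum, 40 of the 60 were positive and the median was 0.08, and the part of these cells in the list was not tested. *Angptl4*, a secreted inhibitor of lipoprotein lipase, had the smallest adjusted p of all genes tested, with 6.23, 4.63 and 6.07 CPM in Ctrl and 80.5, 74.3 and 97.8 CPM in stress (14.9-fold, 3.90 ± 0.16 on the log2 scale, adjusted p = 3.98e-06). *Ppargc1a*, a coactivator of mitochondrial and gluconeogenic genes, had 14.5, 13.9 and 11.6 CPM and 27.4, 24.4 and 35.6 CPM (2.18-fold, 1.13 ± 0.18 on the log2 scale, adjusted p = 0.0149, up to 0.0827 without Ctrl 1, 2 or 3). Of the remaining 5, *Slc22a5* imports carnitine, *Pex11a* divides peroxisomes, *Acot1* and *Acot2* release fatty acids from coenzyme A, and *Fabp1* binds fatty acids in enterocytes, with fold changes from 1.52 (*Slc22a5*) to 10.5 (*Fabp1*). *Acot1* and *Acot2* are closely similar copies, so their reads may be split between them. The nuclear receptor gene *Ppara* did not pass (17.1, 13 and 19.1 CPM against 26.4, 14 and 35.2 CPM, adjusted p = 0.355), and neither did any of the 15 genes of mitochondrial beta-oxidation, whose median was 0.10, or the 4 of ketogenesis. Left out in turn, Ctrl 1, 2 and 3 and stress 1+2, 3 and 4+5+6 gave counts of 1, 1, 1, 4, 19 and 5 in place of 7, and *Angptl4* was past both limits in all 6 fits.

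*Pdk4*, the kinase that shuts pyruvate out of the mitochondrial dehydrogenase, had 0.94, 1.86 and 1.59 CPM in Ctrl and 91.7, 38.4 and 98.8 CPM in stress. Even stress 3, the lowest of the stress libraries, was far above the Ctrl libraries, and the log2 fold change was 5.70 ± 0.41 (51.9-fold, adjusted p = 0.000119). The Ctrl levels lay near the floor of 12 counts, so the size of this change is uncertain (from 3.81 to 6.02 over the alternatives). *Pdk4* was the 1 member that rose among 16 genes for the fate of pyruvate. The 17 tested genes of glycolysis had 0 calls in either direction in edgeR, while 5 were higher at an unadjusted p under 0.05 and 3 in DESeq2, and 3 rose in edgeR without stress 3. Of 15 gluconeogenic genes, *G6pc*, *Pck1*, *Pck2* and *Ppargc1a* rose and *Hnf4a* fell. Of the 15, 26.7% thus rose and 6.67% fell, against 1.3% and 0.59% of all genes. The 4 that rose became 0, 1, 1, 2, 5 and 2 without Ctrl 1, 2 and 3 and stress 1+2, 3 and 4+5+6, and the calls on *Pck2* and *Hnf4a* held without stress 3 alone (adjusted p otherwise up to 0.193 and 0.198). *G6pc*, which releases free glucose, was at 0 in the Ctrl libraries and had 3.51, 2.07 and 8.19 CPM in stress, at least 6.34-fold higher than the floor of 12 counts per library (adjusted p = 0.0101). Its level was highest in stress 4+5+6, as for the enterocyte markers, and its call was lost without Ctrl 1 (adjusted p = 0.0509).

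Insulin signalling genes moved in single members rather than as a block. Of 20 insulin signalling genes, *Irs2* rose and *Pik3ap1*, an adaptor that activates PI3-kinase, fell from 21.5, 21.6 and 21.5 CPM to 11.8, 11.1 and 8.31 CPM (2.07-fold lower, -1.05 ± 0.17 on the log2 scale, adjusted p = 0.018, up to 0.0977 without Ctrl 1, 2 or 3). Of 38 FoxO factors and targets, 10 rose (26.3%, against 1.3% of all genes) and 1 fell. In this list 28 members had a positive log2 fold change, and the median was 0.29 (0.21 to 0.34 over the alternatives). Several of the 10 are also glucocorticoid receptor targets. The factors themselves did not pass: *Foxo1* stood at 56.9, 54.3 and 51.3 CPM against 36.8, 49.4 and 42 CPM (adjusted p = 0.212) and *Foxo3* at 67.8, 66.8 and 64.7 CPM against 79.1, 84 and 90.9 CPM (adjusted p = 0.0853). *Txnip*, which binds thioredoxin and limits glucose uptake, had 546, 498 and 474 CPM in Ctrl and 1377, 1089 and 1306 CPM (2.49-fold, 1.31 ± 0.10 on the log2 scale, adjusted p = 0.000228). *Trp53inp1*, a promoter of autophagy and cell cycle arrest, had 30.3, 24.6 and 17.4 CPM and 92.7, 89 and 82.6 CPM (3.65-fold, 1.87 ± 0.17 on the log2 scale, adjusted p = 0.000624). *Ccng2*, a cyclin of quiescent cells, had 23.9, 23.7 and 18.3 CPM and 43.6, 54.4 and 40.8 CPM (2.11-fold, 1.07 ± 0.15 on the log2 scale, adjusted p = 0.00949). For these genes the stress libraries were all above Ctrl and close together, and the calls held in all 6 fits that left out a library. The FoxO list kept 5, 7, 6, 7, 13 and 8 higher members when Ctrl 1, 2, 3, stress 1+2, 3 and 4+5+6 were left out.

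Of 29 genes that regulate the mTORC1 kinase complex, 5 rose (17.2%, against 1.3% of all genes) and 1 fell. Of the 16 brakes among them 4 rose, *Ddit4* included, and of the 13 complex members and activators 1 did. *Sesn1*, which inhibits the complex when leucine is low, rose 1.56-fold and *Pdcd4*, an inhibitor of translation, 1.47-fold, while *Eif4ebp3*, which holds back the cap-binding factor, had 2.7, 1.38 and 1.41 CPM against 7.2, 5.18 and 6.45 CPM (3.41-fold, 1.77 ± 0.37 on the log2 scale, adjusted p = 0.0444). *Slc7a5*, an importer of leucine and thus on the activating side, rose 1.39-fold, and *Sesn2*, a brake that senses leucine, fell 1.72-fold. Without stress 3, 7 of the 29 rose, and without any other library *Ddit4* alone did. *Eif4ebp3* overlaps *Ankhd1*, a gene on the same strand with more counts that did not pass the test, so reads of the pair may be mixed.

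**Figure D2:**
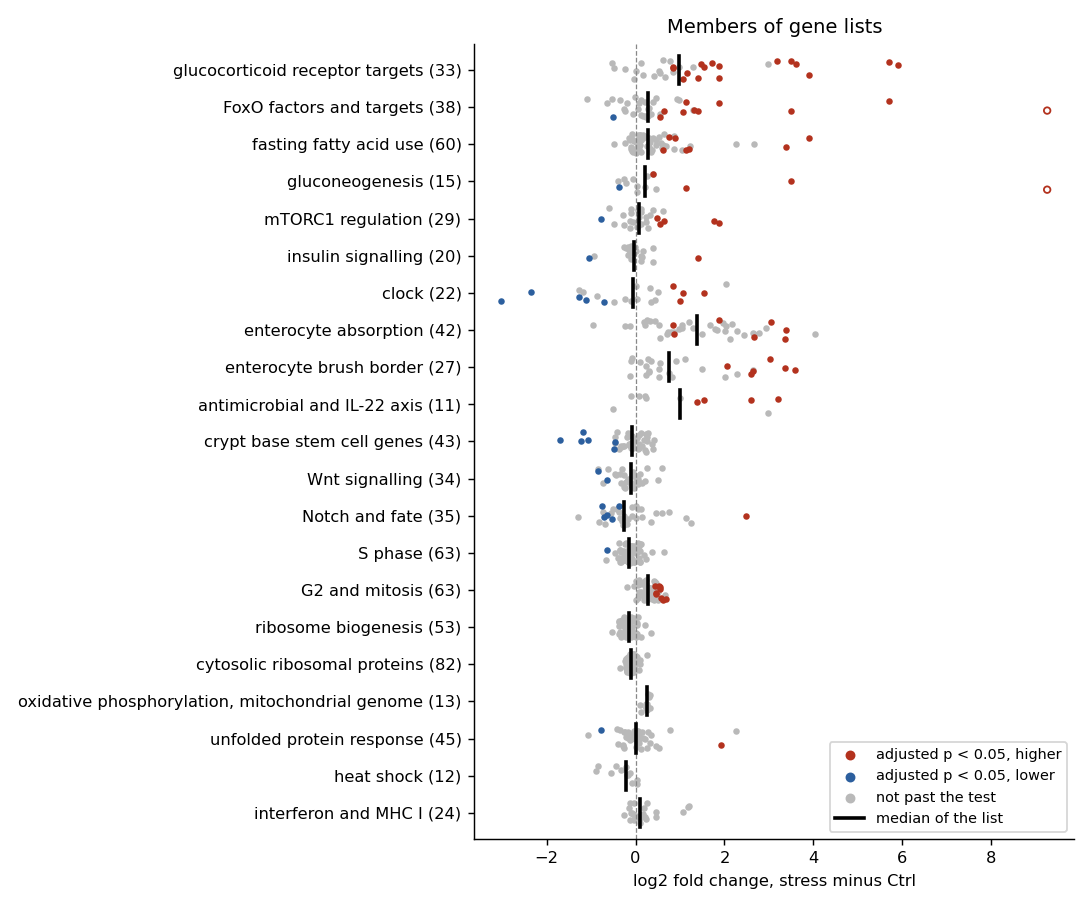
Log2 fold change, stress minus Ctrl, of each tested member of 21 gene lists (number tested in parentheses), with red and blue points for members that rose or fell at an adjusted p under 0.05, grey points for the others and a bar at the median of the list. Glucocorticoid receptor targets and the enterocyte and antimicrobial lists have medians from 0.76 to 1.39, and those of the other lists lie between -0.26 and 0.29, while the open red points at the right (*G6pc*, in 2 lists) had no count in Ctrl, so their position has no scale.

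Clock genes moved in both directions. Cellular clocks run on a loop in which ARNTL (BMAL1) with CLOCK or NPAS2 activates the Per, Cry and Nr1d genes and the output factors *Dbp* and *Tef* through E-boxes, while the NR1D (REV-ERB) repressors close a second loop by silencing *Arntl* and *Nfil3*. Of 22 clock genes, 4 rose (18.2%, against 1.3%) and 5 fell (22.7%, against 0.59%), with a median of -0.05. In the positive arm, *Arntl* had 24.3, 27.4 and 25.2 CPM in Ctrl and 49.6, 63.1 and 49.5 CPM in stress (2.11-fold, 1.08 ± 0.13 on the log2 scale, adjusted p = 0.00331), and *Npas2* had 15.5, 12.1 and 22.8 CPM and 37.8, 33.5 and 30.1 CPM (2.01-fold, 1.01 ± 0.22 on the log2 scale, adjusted p = 0.0475). *Clock* itself did not pass (84.3, 73.6 and 73.8 CPM against 81.8, 68.5 and 88 CPM, adjusted p = 0.91).

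In the negative arm, the members split. *Per1*, a direct receptor target, had 45.6, 58.2 and 48.1 CPM in Ctrl and 90.7, 85.9 and 94.1 CPM in stress (1.78-fold higher, 0.83 ± 0.11 on the log2 scale, adjusted p = 0.00493). *Per2* had 26, 19.5 and 29.6 CPM and 12.8, 10.9 and 7.26 CPM (2.43-fold lower, -1.28 ± 0.23 on the log2 scale, adjusted p = 0.0255). The repressor gene *Nr1d1* had 74, 70.0 and 76.2 CPM and 37.9, 22.6 and 40.6 CPM (2.18-fold lower, -1.12 ± 0.18 on the log2 scale, adjusted p = 0.0176). *Per1* and *Per2* thus differed in direction, with no overlap between the groups for either gene. *Nr1d2*, the relative of *Nr1d1*, fell 1.62-fold (adjusted p = 0.0148). *Per3*, *Cry1* and *Ciart*, named after their values were seen, did not pass (adjusted p = 0.075, 0.317 and 0.798).

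The largest changes among clock genes were in the output factors of the PAR bZIP family. *Dbp* had 13.5, 13.6 and 9.26 CPM in Ctrl and 1.06, 2.07 and 1.34 CPM in stress (8.08-fold lower, -3.01 ± 0.33 on the log2 scale, adjusted p = 0.00206). Its stress levels lay near the floor of 0.7 to 0.753 CPM in these libraries. The size of its change is thus uncertain (from -3.32 to -2.07 over the alternatives). *Tef* had 57.9, 45.4 and 61.8 CPM and 12.4, 6.03 and 14 CPM (5.08-fold lower, -2.35 ± 0.26 on the log2 scale, adjusted p = 0.00248). *Nfil3*, which competes with both for the same sites, had 10.3, 5.83 and 5.7 CPM and 19.5, 20.6 and 23.2 CPM (2.89-fold higher, 1.53 ± 0.24 on the log2 scale, adjusted p = 0.0157). The activators of D-box genes thus fell while their competitor rose. Per length, the authors' FPKM averaged 6.42 for *Dbp* and 3.21 for *Nfil3* in Ctrl and 0.761 and 9.25 in stress, so that the order of the levels of these genes was opposite in the groups. *Dbp* overlaps *Sphk2*, a sphingosine kinase gene with more counts, on the opposite strand. *Sphk2* also fell (1.45-fold, adjusted p = 0.0332, up to 0.167 with a library left out). *Nr1d1* overlaps *Thra*, a thyroid hormone receptor gene with more counts that did not pass, also on the opposite strand. Reads of either pair cannot be told apart where the counting did not use strand. *Dbp*, *Tef*, *Arntl* and *Per1* kept an adjusted p under 0.05 in all 6 fits that left out a library, whereas *Npas2*, *Per2*, *Nr1d1* and *Nfil3* kept it in 2 of them and *Nr1d2* in 3 (adjusted p up to 0.207). The restraint and the collection were not tied to a clock time in the sources used here, so a difference in time of day between the groups and the restraint cannot be told apart.

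**Figure D3:**
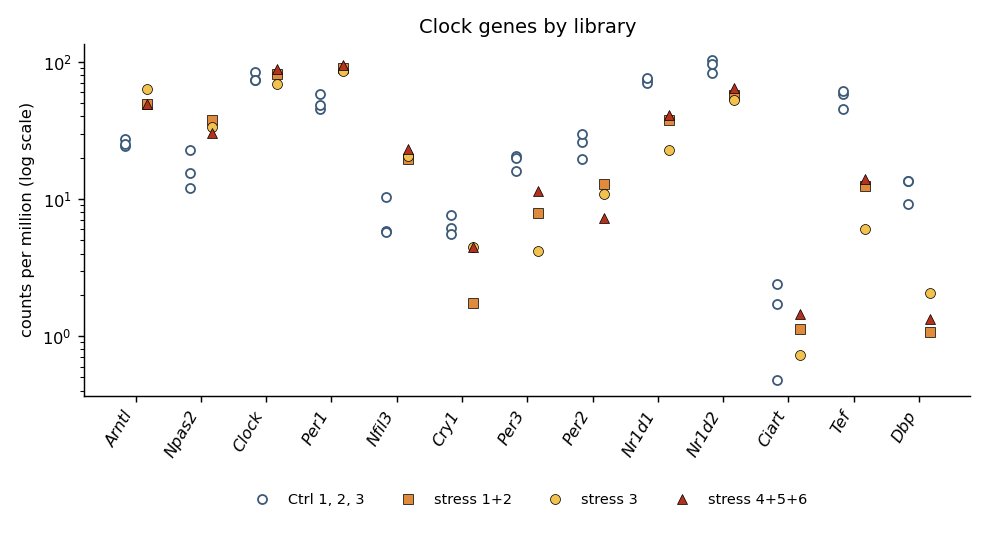
Level of 13 clock genes in each library, in CPM on a log axis, with open circles for Ctrl and filled symbols for stress. *Arntl*, *Npas2* and *Clock* stand at the left and *Tef* and *Dbp* at the right. *Arntl*, *Npas2*, *Per1* and *Nfil3* lie higher in stress and *Per2*, *Nr1d1*, *Nr1d2*, *Tef* and *Dbp* lower, with no overlap for these 9, while the groups overlap for *Clock* and *Ciart*.

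The windows around the start of *Arntl* and *Nfil3* are printed for the element TAGGTCA, to which REV-ERB and ROR factors bind, and those of *Per1* and *Tef* for the E-box CACGTG, which reads the same on either strand. The first of these elements, searched on both strands, was found in 231 of 9737 genes (2.37%), in 4 of the 67 higher genes with a window (*Arntl*, *Nfil3*, *Fabp1* and *G6pc*) and in 0 of the 13 lower genes. CACGTG was found in 1160 genes (11.9%), in 5 of the 67 and in 3 of the 13, with *Tef* among the 3. *Per1*, which rose by less than 2-fold, is not one of the 67. No CACGTG was found for *Dbp*, *Nr1d1* or *Nr1d2*. The D-box TTATGTAA was found in 62 genes (0.637%) and in 0 of the higher or lower genes, and the FoxO element GTAAACA in 316 genes (3.25%), 4 of the 67 and 0 of the 13. Capitals mark the element, at +31 from the annotated start in *Arntl* (chr7:113207261-113207560, + strand), 12 bases before the start in *Nfil3* (chr13:52980990-52981289, - strand, where the window holds its reverse complement), 166 bases before a start of *Per1* (chr11:69098699-69098998, + strand) and 127 before a start of *Tef* (chr15:81802423-81802722, + strand). *Per2* had no window.
Arntl: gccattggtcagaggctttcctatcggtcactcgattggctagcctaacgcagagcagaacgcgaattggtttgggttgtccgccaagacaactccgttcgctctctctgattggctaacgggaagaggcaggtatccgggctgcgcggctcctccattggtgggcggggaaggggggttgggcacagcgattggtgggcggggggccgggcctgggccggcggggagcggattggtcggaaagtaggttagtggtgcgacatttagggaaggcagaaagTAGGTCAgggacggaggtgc
Nfil3: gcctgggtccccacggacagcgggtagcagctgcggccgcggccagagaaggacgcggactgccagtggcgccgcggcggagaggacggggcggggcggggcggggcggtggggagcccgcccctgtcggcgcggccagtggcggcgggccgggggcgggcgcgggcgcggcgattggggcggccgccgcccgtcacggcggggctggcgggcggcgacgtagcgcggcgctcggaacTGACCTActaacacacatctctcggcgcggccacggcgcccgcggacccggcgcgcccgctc
Per1: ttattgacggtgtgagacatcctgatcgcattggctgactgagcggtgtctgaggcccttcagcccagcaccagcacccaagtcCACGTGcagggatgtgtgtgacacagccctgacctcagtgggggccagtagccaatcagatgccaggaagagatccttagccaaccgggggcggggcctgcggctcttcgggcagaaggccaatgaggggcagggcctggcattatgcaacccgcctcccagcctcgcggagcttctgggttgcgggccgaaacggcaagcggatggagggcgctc
Tef: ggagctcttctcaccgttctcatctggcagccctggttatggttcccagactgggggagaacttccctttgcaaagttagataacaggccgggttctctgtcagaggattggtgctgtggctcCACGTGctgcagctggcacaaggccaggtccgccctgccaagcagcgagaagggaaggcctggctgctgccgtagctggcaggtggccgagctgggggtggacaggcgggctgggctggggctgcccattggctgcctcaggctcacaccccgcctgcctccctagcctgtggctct

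A small set of crypt base genes fell, *Ascl2* among them, while *Lgr5* and *Olfm4* did not pass the test. Of 43 tested genes of the crypt base stem cell list, 6 fell (14%, against 0.59%) and 0 rose (5 at an unadjusted p under 0.05 in edgeR, 3 in DESeq2), with a median of -0.08. *Lgr5*, the Wnt co-receptor that marks these cells and drives the reporter, had 225, 207 and 246 CPM in Ctrl and 249, 174 and 217 CPM in stress (adjusted p = 0.823). *Olfm4*, a secreted marker, had 8432, 7484 and 8004 CPM and 9631, 10400 and 7929 CPM (adjusted p = 0.362). For both markers the groups overlapped. *Ascl2*, the factor that maintains Lgr5+ cells, had 148, 139 and 148 CPM in Ctrl and 54.2, 69.3 and 62.2 CPM in stress (2.34-fold lower, -1.23 ± 0.10 on the log2 scale, adjusted p = 0.000336). *Slc14a1*, a urea transporter of the same signature, had 124, 116 and 135 CPM and 44.3, 37.2 and 34.4 CPM (3.23-fold lower, -1.69 ± 0.11 on the log2 scale, adjusted p = 0.000117). *Zfpm1*, a cofactor of GATA factors, had 284, 268 and 299 CPM and 131, 151 and 124 CPM (2.09-fold lower, -1.06 ± 0.10 on the log2 scale, adjusted p = 0.00057). The groups were far apart for these 3 genes, and each kept both limits in all 6 fits that left out a library. *Efna3*, an ephrin ligand, fell 2.28-fold, *Myc* 1.38-fold and *Hopx*, a marker of slow-cycling cells, 1.39-fold, and these 3 lost the call in 2, 5 and 5 of the 6 fits (adjusted p up to 0.206).

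Other pathways of the crypt niche held fewer calls. Of 34 Wnt signalling genes, *Fzd7*, the receptor that stem cells need for Wnt signals, fell 1.57-fold (adjusted p = 0.0121) and *Sfrp5*, a secreted Wnt antagonist, fell 1.8-fold (adjusted p = 0.018), so a receptor and an inhibitor moved the same way, and they lost the call in 3 and 2 of the 6 fits (adjusted p up to 0.0846). In this list 5.88% fell, against 0.59% of all genes, and 0 rose. Of 18 BMP signalling genes, *Id2*, an inhibitor of bHLH factors, fell from 34.2, 28.7 and 27.2 CPM to 13, 13 and 11 CPM (2.44-fold lower, -1.29 ± 0.15 on the log2 scale, adjusted p = 0.00334) and kept both limits in all 6 fits. Of 35 Notch and cell fate genes, 5 fell (14.3%, against 0.59% of all genes) and 1 rose, with a median of -0.26. *Nrarp*, a feedback target of Notch, had 77.3, 76.9 and 68.9 CPM and 40.6, 49.9 and 45.3 CPM (1.64-fold lower, -0.72 ± 0.10 on the log2 scale, adjusted p = 0.0101). *Cdx2*, the intestinal identity factor, had 397, 454 and 369 CPM and 209, 266 and 244 CPM (1.7-fold lower, -0.76 ± 0.11 on the log2 scale, adjusted p = 0.0101). For both genes every stress library lay below every Ctrl library. *Sox4* and *Foxa3*, both of the secretory branch, fell 1.43-fold and 1.55-fold, *Hnf4a*, of the absorptive branch, fell 1.29-fold, and all 8 secretory fate genes had a negative log2 fold change. *Maf*, a factor of villus enterocytes, rose from 4.41, 4.81 and 4.05 CPM to 25.3, 8.23 and 41 CPM (adjusted p = 0.0282), in the order of the enterocyte markers. The 5 Notch and fate genes that fell became 0, 1, 2, 3, 8 and 2 without Ctrl 1, 2 and 3 and stress 1+2, 3 and 4+5+6, and *Maf* passed without stress 3 alone (adjusted p otherwise up to 0.153).

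The cell cycle lists had small medians of opposite sign. Of 63 genes of G2 and mitosis, 9 rose (14.3%, against 1.3%) and 0 fell (0 at an unadjusted p under 0.05 in edgeR, 0 in DESeq2), 61 had a positive log2 fold change (49.5% of all genes did), and the median was 0.28. Of 63 S phase genes, 0 rose (2 at an unadjusted p under 0.05 in edgeR, 1 in DESeq2) and 1 fell, 47 were negative, and the median was -0.14. *Cenpe*, a kinetochore motor, had 42.3, 47.6 and 47.8 CPM in Ctrl and 81.2, 64.4 and 75.2 CPM in stress (1.6-fold, 0.68 ± 0.11 on the log2 scale, adjusted p = 0.0165). *Top2a*, which untangles chromosomes, had 366, 371 and 369 CPM and 524, 467 and 522 CPM (1.37-fold, 0.45 ± 0.08 on the log2 scale, adjusted p = 0.0218). *Mki67*, the antigen of the Ki-67 stain, had 260.5, 248 and 254 CPM and 367, 322 and 339 CPM (1.35-fold, 0.43 ± 0.08 on the log2 scale, adjusted p = 0.0282). The stress libraries were all above Ctrl for these genes, by less than 2-fold. *Cdk1*, the mitotic kinase, did not pass (69.5, 84.8 and 67.5 CPM against 84.8, 82.3 and 87.2 CPM, adjusted p = 0.412). The 11 genes that the study grouped as related to proliferation were all negative (median -0.38), and *Efna3*, *Pik3ap1* and *Ung* fell among them (10 were lower at an unadjusted p under 0.05). The study presents these as known regulators of proliferation and reports them as suppressed in these same samples. How they were picked from the known genes is not given, so the list is not taken as independent evidence of the direction.

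In S phase, *Ung*, which removes uracil from DNA, had 83.3, 83.8 and 97.8 CPM in Ctrl and 48.3, 63.3 and 59.4 CPM in stress (1.55-fold lower, -0.63 ± 0.12 on the log2 scale, adjusted p = 0.0282). *Mcm2*, of the replicative helicase, had 193, 200.5 and 224 CPM and 149, 177 and 163 CPM (adjusted p = 0.119), and *Pcna*, the polymerase clamp, had 298, 306 and 275 CPM and 196, 269 and 230.4 CPM (adjusted p = 0.184). Both lay lower in the stress libraries without passing the test. Among 26 genes of G1 control, *Ccne1*, the cyclin of S phase entry, fell from 17.9, 18.6 and 19.3 CPM to 6.26, 8.59 and 10.3 CPM (2.21-fold lower, -1.15 ± 0.21 on the log2 scale, adjusted p = 0.0239), *Ccnd2* fell 1.41-fold and *Ccng2* rose as given above. Of the 26, 3.85% thus rose and 7.69% fell, against 1.3% and 0.59% of all genes. The call on *Ccne1* was lost in 4 of the 6 fits that left out a library (adjusted p up to 0.116), and those on *Ung* and *Ccnd2* in the 5 other than the fit without stress 3 (up to 0.132 and 0.157). The inhibitor gene *Cdkn1a* did not pass (9.52, 8.84 and 6.2 CPM against 16.8, 9.75 and 33.5 CPM, adjusted p = 0.139). The G2 and mitosis median stayed between 0.25 and 0.37 and that of S phase between -0.18 and -0.09 under all alternatives, but the 9 calls became 0, 2, 0, 0, 19 and 2 without Ctrl 1, 2 and 3 and stress 1+2, 3 and 4+5+6. Replication-dependent histones, most of which lack a poly(A) tail, were positive in 29 of 33 genes with a median of 0.60 and 0 calls in edgeR (3 higher at an unadjusted p under 0.05, 0 in DESeq2), and this median lay between 0.18 and 0.72 over the alternatives.

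**Figure D4:**
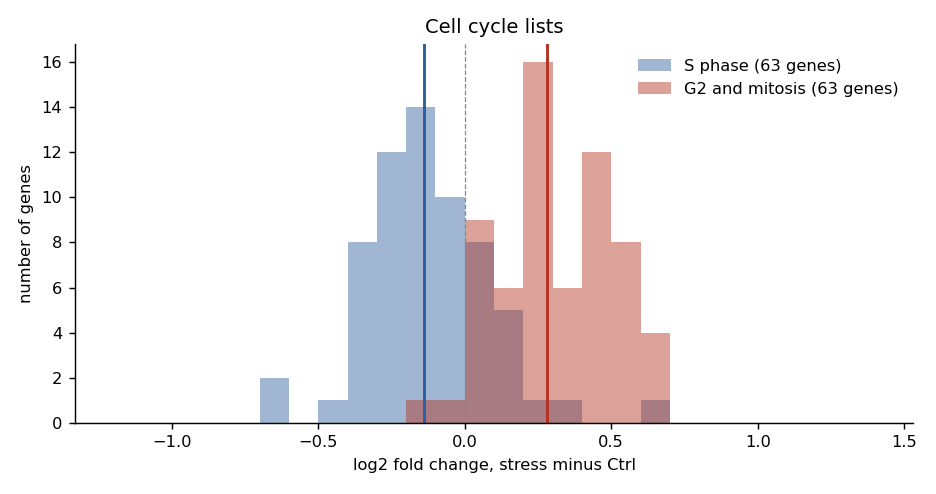
Number of genes by log2 fold change, stress minus Ctrl, for 63 genes of S phase (blue) and 63 of G2 and mitosis (red), in bins of 0.1, with vertical lines at the medians of -0.14 and 0.28. Of the S phase genes 47 lie below 0 and of the G2 and mitosis genes 61 lie above it.

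The lists of ribosome biogenesis and ribosomal protein genes held no call in edgeR with all 6 libraries. Most of their members had negative log2 fold changes. Of 53 ribosome biogenesis genes, 44 were negative, with a median of -0.15, and of 82 cytosolic ribosomal protein genes 72 were, with a median of -0.11. At an unadjusted p under 0.05, 2 biogenesis genes were higher and 14 lower, and 0 ribosomal protein genes were higher and 3 lower, and DESeq2 called 2 biogenesis genes lower and 0 ribosomal protein genes. Without stress 3, 30 ribosomal protein genes and 5 biogenesis genes fell in edgeR, and the ribosomal protein median lay between -0.23 (without stress 3) and -0.04 (without stress 1+2) over the alternatives. The 13 protein genes of the mitochondrial genome were all higher (median 0.25), with 0 past an unadjusted p of 0.05 or DESeq2, and this median was 0.05 without stress 1+2, the library with the highest mitochondrial share (3.62%), and 0.48 without stress 3, the one with the lowest (1.91%), a fit in which 8 of the 13 passed. The 78 nuclear genes of oxidative phosphorylation had a median of 0.01, with 42 positive. Of the 78, *Cox7a1* alone rose (1.28%, against 1.3% of all genes), with a log2 fold change of 2.43 in edgeR (adjusted p = 0.0495). Its call held without stress 3 and in no other fit that left out a library (adjusted p up to 0.194).

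Protein folding genes did not move as a group. Of 45 genes of the unfolded protein response, *Herpud1*, a membrane protein of ER-associated degradation, rose from 90.2, 118 and 80.2 CPM to 363, 368 and 362 CPM (3.79-fold, 1.92 ± 0.13 on the log2 scale, adjusted p = 0.000117), with nearly equal levels in the stress libraries. *Sesn2* fell as given above, and the ER chaperone gene *Hspa5* did not pass (451, 439.9 and 460.0 CPM against 362, 440.0 and 333 CPM, adjusted p = 0.289). The 12 heat shock genes had a median of -0.21 and 0 calls in edgeR (4 lower at an unadjusted p under 0.05, 1 in DESeq2), but 3 of the 12 fell without stress 3 (median -0.39). Among 25 immediate early genes, *Btg2*, an antiproliferative factor, and *Klf6* rose and *Myc* fell (the call on *Btg2* was lost without Ctrl 1 or Ctrl 3, with adjusted p up to 0.0674), and *Fos* had 51.3, 56.4 and 102 CPM in Ctrl and 157, 96.5 and 80.4 CPM in stress, with overlap (adjusted p = 0.291). Of the 25, 8% thus rose and 4% fell, against 1.3% and 0.59% of all genes. Lists for NF-kappaB (21 genes), interferon and MHC class I (24) and MHC class II (7) had 0 calls in edgeR, with unadjusted p under 0.05 in 2, 0 and 0 genes and DESeq2 calls in 1, 0 and 0. *Kcne3*, a channel subunit of crypt chloride secretion, fell 1.81-fold (adjusted p = 0.00767, and 0.0503 without Ctrl 3) among 18 sodium transport genes, of which *Sgk1* and *Tsc22d3* rose.

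Enterocyte genes rose in a graded way over the stress libraries. Of 27 brush border genes, 6 rose (22.2%, against 1.3% of all genes), all of them among the 15 hydrolases, and 0 fell (0 at an unadjusted p under 0.05 in edgeR, 0 in DESeq2), with a median of 0.76. Of 42 absorption genes, 7 rose (16.7%, against 1.3%) and 0 fell (0 at an unadjusted p under 0.05 in edgeR, 0 in DESeq2), with a median of 1.39. *Sis*, sucrase-isomaltase, had 22.3, 19.2 and 26.7 CPM in Ctrl and 294, 47.4 and 356 CPM in stress (10.2-fold, 3.35 ± 0.58 on the log2 scale, adjusted p = 0.0198). *Alpi*, intestinal alkaline phosphatase, had 4.23, 5.59 and 9.26 CPM and 64.5, 20.4 and 146 CPM (12.1-fold, 3.60 ± 0.61 on the log2 scale, adjusted p = 0.019). *Apoa1*, of the lipoproteins that enterocytes secrete, had 22.2, 28.2 and 28.3 CPM and 169, 72.2 and 408 CPM (8.26-fold, 3.05 ± 0.50 on the log2 scale, adjusted p = 0.0176). Stress 3 was the lowest and stress 4+5+6 the highest stress library for all 3 genes. *Fabp1*, *Rbp2*, *Lct*, *Apoa4*, *Enpep*, *Mep1b* and *Mogat2* followed this order as well, and *Slc5a1*, the glucose transporter, rose 1.81-fold.

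The calls on these genes depended on which libraries were included. Without stress 3, 30 of 42 absorption genes and 19 of 27 brush border genes rose, and without Ctrl 1, Ctrl 2 or Ctrl 3 none did in either list. Without stress 1+2, 4 and 0 rose, and without stress 4+5+6, 6 and 2. The medians kept their sign in each fit, from 0.83 to 1.74 for absorption and from 0.38 to 1.09 for the brush border over all alternatives. Goblet marker genes moved in the same order, with sums of 540 to 684 CPM in Ctrl and 992, 547 and 1533 CPM in stress 1+2, 3 and 4+5+6, and *Zg16* and *Clca1*, which are secreted with mucus, rose 8.88-fold and 3.01-fold, calls that were lost in 2 and 5 of the 6 fits (adjusted p up to 0.194). Paneth marker sums were 140 to 181 CPM in Ctrl and 271, 175 and 256 CPM in stress. The share of other epithelial cells in each library was not measured, and its part in these results was not tested.

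**Figure D5:**
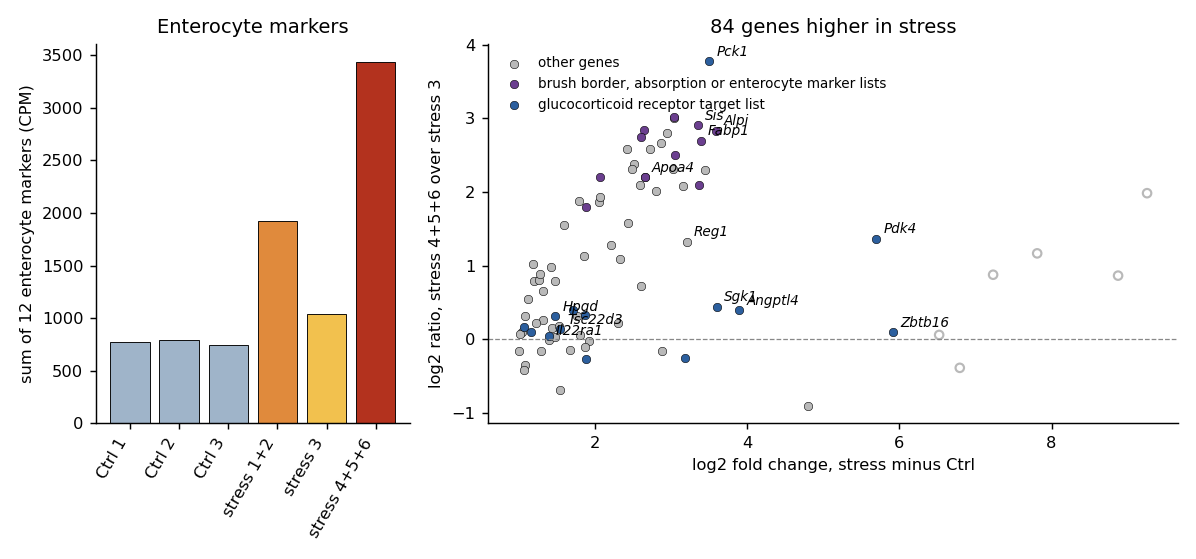
Left, summed level of 12 enterocyte markers in each library in CPM. Right, for the 84 genes higher in stress, the log2 ratio of stress 4+5+6 over stress 3 against the log2 fold change of stress minus Ctrl, with purple points for members of the enterocyte lists, blue for glucocorticoid receptor targets and open points for genes with no count in Ctrl, whose horizontal position has no scale. Most glucocorticoid receptor targets lie near 0 on the vertical axis and the enterocyte genes above 1, with *Pck1* and *Pdk4* as exceptions among the former.

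Of the Reg genes that rose, *Reg3a* followed the enterocyte order and *Reg1* and *Reg3b* did not. Of 11 genes of the antimicrobial and IL-22 list, 4 rose (36.4%, against 1.3% of all genes) and 0 fell (0 at an unadjusted p under 0.05 in edgeR, 0 in DESeq2), with a median of 1.0. *Reg1* had 6.29, 5.29 and 8.22 CPM in Ctrl and 38.8, 41 and 102 CPM in stress (9.21-fold, 3.20 ± 0.38 on the log2 scale, adjusted p = 0.00317). *Reg3b*, a lectin that binds bacteria, had 166, 136 and 99.5 CPM and 335, 515 and 318 CPM (2.91-fold, 1.54 ± 0.21 on the log2 scale, adjusted p = 0.00767). *Il22ra1*, the receptor subunit through which IL-22 induces these lectins, had 11.2, 12.6 and 9.26 CPM and 32.9, 27.1 and 26.9 CPM (2.63-fold, 1.39 ± 0.17 on the log2 scale, adjusted p = 0.00334). *Reg3b* was highest in stress 3, the library with the lowest enterocyte sum, whereas *Reg1* and *Reg3a* were highest in stress 4+5+6. *Reg1* and *Il22ra1* kept both limits in all 6 fits, *Reg3b* lost them without Ctrl 2 (adjusted p = 0.0506), and *Reg3a* (6.05-fold, adjusted p = 0.0255) kept them without stress 3 and in no other fit.

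Detoxification genes rose in 3 of 40 (7.5%, against 1.3% of all genes). *Cyp1a1*, which the aryl hydrocarbon receptor induces, had no count in Ctrl and 3.19, 2.62 and 4.76 CPM in stress, at least 4.87-fold above the floor of 12 counts per library (adjusted p = 0.00493), and kept its call in all 6 fits. *Cyp2b10* and *Sult1d1* rose 6.34-fold and 2.27-fold in the order of the enterocyte markers, calls that held without stress 3 and were lost in the other 5 fits (adjusted p up to 0.182 and 0.132). Of 239 solute carriers, 8 rose (3.35%, against 1.3%) and 2 fell (0.837%, near the 0.59% of all genes). The latter were *Slc14a1* and *Slc25a25*, an ATP-magnesium carrier of mitochondria (1.71-fold lower, adjusted p = 0.00405). Over the alternatives, 0 to 34 solute carriers rose and 2 to 6 fell. Each of the 8 that rose lost its call without Ctrl 1, without Ctrl 2 and without Ctrl 3. Of 300 Zfp genes, 2 rose and 2 fell (0.667% each, against 1.3% and 0.59% of all genes). Outside the lists, *Rnf125*, a ubiquitin ligase, had 7.17, 4.93 and 5.34 CPM in Ctrl and 20.7, 19.7 and 20.5 CPM in stress (3.49-fold, 1.80 ± 0.20 on the log2 scale, adjusted p = 0.00206), and *Lipt2*, an enzyme of lipoate synthesis, had 56.4, 54.2 and 53.2 CPM and 27.4, 27.3 and 25.4 CPM (2.05-fold lower, -1.03 ± 0.10 on the log2 scale, adjusted p = 0.000906). *Lipg*, endothelial lipase, fell 2.19-fold and the predicted gene *Gm4737* 2.58-fold, calls that were each lost in 4 of the 6 fits (adjusted p up to 0.0857). *Rnf125* was named after its values were seen.

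The change in stress was also tested against the change in mice given corticosterone (CORT, 5 mg per kg) relative to vehicle, with 3 libraries in each of those groups and none shared with stress or Ctrl. Total counts were 69533214, 59689732 and 29426183 in CORT 2, 4 and 5 and 16465961, 16889139 and 31280267 in vehicle 3, 5 and 6. Stress and Ctrl libraries had 15934907 to 17135770, so CORT libraries and vehicle 6 were deeper. The part of depth in the differences was not tested. Of 14415 genes, 56 differed at an adjusted p under 0.05 (0.388%), 28 with the larger value in stress and 28 with the larger value in CORT. CPM of this fit are scaled over all 12 libraries. The 5 genes with the smallest adjusted p were *Hpgd*, *Mmp7*, *Clic4*, *Gramd3* and *Sesn1*. *Hpgd* had 41, 37.4 and 37.7 CPM in vehicle and 370.2, 343 and 285 CPM in CORT, and its log2 fold change was 3.10 in CORT and 1.48 in stress (difference -1.63 ± 0.15, adjusted p = 0.000542). *Sesn1* had 21.6, 24 and 24.6 CPM in vehicle and 138, 137 and 90.8 CPM in CORT, a log2 fold change of 2.38 against 0.64 in stress (difference -1.74 ± 0.22, adjusted p = 0.00434). Its vehicle libraries lay below its Ctrl libraries (35.67, 42.11 and 41.34 CPM). Both genes thus rose in either comparison and by more in CORT. *Mmp7*, a protease of Paneth cells that processes defensins, had 25.7, 24 and 16.5 CPM in Ctrl, 40.7, 40.1 and 39.9 CPM in stress, 79.2, 92.6 and 100 CPM in vehicle and 31.8, 35.9 and 42.1 CPM in CORT. It rose in stress (adjusted p = 0.0285) and fell in CORT (adjusted p = 0.000483), with a difference of 2.18 ± 0.21 (adjusted p = 0.000688), and the vehicle libraries lay well above the Ctrl libraries. *Clic4*, an intracellular channel protein, changed by 0.33 ± 0.10 on the log2 scale in stress, where it did not pass (adjusted p = 0.135), and by 1.55 in CORT (difference -1.23 ± 0.13, adjusted p = 0.00107). *Gramd3* had 0.39 ± 0.12 in stress, where it did not pass either (adjusted p = 0.152), against -0.88 in CORT (difference 1.27 ± 0.15, adjusted p = 0.00291). The count of 56 lay between 12 (without Ctrl 1) and 241 (without stress 3) when each of the 12 libraries was left out. Of the 5 genes, *Hpgd* alone kept both limits against Ctrl in all 6 fits, and the stress calls on *Sesn1* and *Mmp7* held without stress 3 and in no other fit.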

How the data were processed

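ISC RNA of 12 libraries was sequenced as paired 150-base reads, and 3 stress and 3 Ctrl libraries were compared, grouped by their labels. The authors aligned the reads to mm10 with HISAT2. Estimated counts of each gene were deposited in 1 table, as whole numbers without scaling to library size. Submitters' processing notes name HISAT2 2.2.1 and StringTie 2.2.1, whereas the methods name featureCounts, and in genes with 1 transcript a count stood for 75 covered bases, so a read pair gives up to 4 counts. FPKM per gene, deposited by the authors for each library, served for alternatives, and the deposited coverage (a signal per base) for finding this unit. Of the symbols, 126 named more than 1 gene.

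Genes were tested with edgeR 4.0.16 (TMM, filterByExpr, quasi-likelihood test) in R 4.3.3, with no covariate. The SE of a log2 fold change came from its F statistic. CPM are divided by TMM-scaled totals. The difference from CORT was tested in 1 fit of 12 libraries. Alternatives were DESeq2 1.42.0, its size factors, total counts, no filter, a mean of at least 50 counts, counts divided by 4, a fit of all 12 libraries, limma 3.58.1 on log2(FPKM + 1) or log2(FPKM + 0.1), and leaving out each library. Libraries of a group differed by more than counting noise (chi-square per gene 9.20 to 34.3). Steps were tested on simulated data.

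Members and the 63 gene lists were chosen with earlier results of these data known, and 157 genes were in more than 1 list. The genes named were, of those past both limits without overlap, the 12 higher and the 10 lower ones of smallest adjusted p, further list members past the test, the first 2 symbols of a role where it is described gene by gene, genes the study names for the sorted cells, and the 5 whose difference from CORT had the smallest adjusted p. Promoter sequences are RefSeq's (GRCm38.p6), without those of chromosome 18. Some single genes of the lists are left out of the text.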

Additional observations from a re-analysis of the deposited data

Results flagged for a closer look

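In 10 of the genes past both limits in stress, the log2 fold change in stress differed from that in CORT by edgeR's test of the difference (adjusted over 14415 genes). The change was smaller in stress for 2 of them. *Hpgd* had 1.48 in stress and 3.10 in CORT, a difference of -1.63 (adjusted p = 0.000542). *Trp53inp1* had 1.87 and 3.83, a difference of -1.96 (adjusted p = 0.00660). Its vehicle libraries (15.16, 15.36 and 11.89 CPM) lay below its Ctrl libraries (30.18, 24.52 and 17.32 CPM). All libraries of either treatment lay above their controls for both genes, and both differences kept an adjusted p under 0.05 when each of the 12 libraries was left out.

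The other 8 had the larger value in stress. *Reg1* had 3.20 in stress and -0.20 in CORT, a difference of 3.40 (adjusted p = 0.00710), which held without each of the 12 libraries. *Reg3b* had 1.54 and -2.35, a difference of 3.89 (adjusted p = 0.0209), and *Reg3a* had 2.60 and -1.09, a difference of 3.70 (adjusted p = 0.0355). The differences were 4.65 for *Fabp1* (adjusted p = 0.0294), 3.29 for *Rbp2* (0.0355), 2.61 for *Ace* (0.0344), 3.48 for *St3gal4* (0.0358) and 3.98 for *Apol10a* (0.0361). These 7 kept an adjusted p under 0.05 in 2 to 7 of the 12 fits that left out a library. In stress the *Reg3a*, *Fabp1*, *Rbp2*, *Ace*, *St3gal4* and *Apol10a* levels followed the order of the enterocyte marker sum, and the part of that sum in these differences was not tested. Each difference also depends on the levels in both control groups. *Reg3b* had 223.7, 162.2 and 564.5 CPM in vehicle and 165, 135.7 and 98.9 CPM in Ctrl. *Fabp1* had 20.74, 57.09 and 29.9 CPM in vehicle and 9.065, 8.613 and 10.91 CPM in Ctrl.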

How the results depend on the processing

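The 84 higher and 19 lower genes became 140 and 25 with DESeq2, 25 and 7 without a filter on low counts, 34 and 12 with log2(FPKM + 1), and 40 and 14 with log2(FPKM + 0.1). They were 84 and 19 with DESeq2's size factors, 73 and 19 with total counts, 90 and 19 with a mean of at least 50 counts, 90 and 23 with counts divided by 4, and 119 and 27 in a fit of all 12 libraries. Leaving out 1 library gave 29 (Ctrl 3) to 248 (stress 3) higher and 7 (Ctrl 3) to 30 (stress 3) lower genes. The 56 genes that differed between stress and CORT were 395 with DESeq2, 50 to 80 under the other settings and 12 (without Ctrl 1) to 241 (without stress 3) with a library left out. The cause was not tested for any of these, except that a fit without a library has fewer samples. With a library left out, the log2 fold changes of *Ciart* (from -0.89 without Ctrl 2 to 0.0078 without Ctrl 1), *Clock* (from -0.037 without stress 4+5+6 to 0.14 without stress 3), *Lgr5* (from -0.21 without stress 1+2 to 0.044 without stress 3) and *Nr3c1* (from -0.087 without Ctrl 3 to 0.015 without stress 3) changed sign. With log2(FPKM + 1) and log2(FPKM + 0.1) those of *Clock* (-0.082 and -0.090) and *Nr3c1* (0.022 and 0.023) did. These 4 genes did not pass the test, and the other genes named kept their sign under every setting run. Low genes were limited by depth, with a floor of 0.700 to 0.753 CPM per library, which covers counting error only. No paired analysis was possible because the stress labels 1+2 and 4+5+6 join several numbers, so that only the number 3 stands alone in both groups.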
